A study of Mus musculus with 55 samples.

Results

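Cd14, Tlr2, Gpr84, Cd86 and Lrrc25, 5 receptors of innate sensing and microglial activation, were followed in mouse cortex across 8 groups of diet and day after injury. They were chosen by gene symbol, with earlier results of these data known, and are 5 of the 799 genes of an nCounter panel. The nCounter counts fluorescent barcodes bound to target molecules, here after pre-amplification of the RNA. Cortex came from 55 male C57BL/6 mice bought as adults of 8 to 10 weeks, with 1 library per mouse. All groups ate AIN-76A chow, either plain (vehicle) or with PLX5622 at 1200 mg/kg. PLX5622 blocks the CSF1 receptor, whose signal keeps microglia alive. It was eaten for 14 days before diffuse traumatic brain injury (TBI) and until the tissue was taken. On vehicle there were 7 naive mice, 6 at 1 day, 7 at 7 days and 5 at 30 days after TBI. On PLX5622 there were 6 naive mice, 8 at 1 day, 9 at 7 days and 7 at 30 days. The labels used here do not say how long the naive mice ate their diet. Each diet has a single naive group for all days, so later days after TBI also mean longer feeding. The title of mouse 695 names 7d, but its injury label is naive, and it was kept as naive on vehicle. Regions were cut out where neighbouring sections stained for CD11b showed hypertrophied and rod-shaped microglia, so the sampling itself followed microglial shape.

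CD14 is a surface protein that hands bacterial lipopolysaccharide and other ligands to Toll-like receptors. TLR2 is a Toll-like receptor for bacterial lipoproteins that signals through MyD88 to NF-kB. GPR84 is a G protein-coupled receptor that responds to medium-chain fatty acids and is low in resting microglia. CD86 is a costimulatory ligand for CD28 and CTLA-4 on T cells. LRRC25 is a leucine-rich repeat membrane protein of myeloid cells. In brain, the main cells known to carry these receptors are microglia and, after injury, macrophages from blood.

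Total barcode counts ran from 176038 to 1208609 per mouse, with a median of 519047. Values below are normalised counts, the barcode count divided by 1 factor per mouse, and 1 barcode count was worth between 0.386 and 2.83 normalised counts. The receptors therefore rest on few barcodes: in naive PLX5622 cortex the median count of Cd86 was 4. Of 29 microglial markers, 17 were on the panel. Their summed level ran from 2269 to 6898 over the vehicle groups and from 203 to 2152 over the PLX5622 groups. Csf1r, the target of the drug, stood on PLX5622 at 4.44% of its vehicle mean in naive mice and at 11.9% at 30 days. Cx3cr1, the microglial fractalkine receptor, stood at 2.46% and 14.3%, and P2ry12, a microglial purine receptor, at 3.49% and 7.86%. Aif1, which encodes IBA1, stood at 81.5% and 113%, unlike the other 3 references. Its group means were low on both diets, from 12.5 in naive PLX5622 mice to 15.4 in naive vehicle mice. In naive vehicle mice the mean of Csf1r was 198. The Aif1 means lay near the higher background level explained below, so its shares do not show that its RNA was kept on PLX5622. In whole tissue, fewer cells of a type and less RNA per cell cannot be told apart.

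PLX5622 lowered Cd86 at every time, Gpr84 and Cd14 at 1 and 7 days, and Lrrc25 at 1 day, while no difference in Tlr2 passed the test. Calls are from limma on log2(value + 1), with cartridge as covariate and Benjamini-Hochberg adjustment over all genes, at adjusted p under 0.05. Of the 5 receptors, 1 was called lower in naive mice, where 3.38% of all genes were called lower. At 1 day 4 were called lower, against 4.01% of all genes. At 7 days 3 were called lower, against 4.13% of all genes, and at 30 days 1, against 2.5% of all genes. The median difference over the 5 was -0.74 on the log2 scale in naive mice, -1.46 at 1 day, -1.44 at 7 days and -0.33 at 30 days. Over all genes these medians were -0.14, -0.0056, 0.017 and -0.096. The receptors were chosen with earlier results of these data known, so these shares and medians describe the set and do not test it. DESeq2 and edgeR on the recovered barcode counts each called 1, 4, 3 and 1 of the 5. With only the groups compared in the fit, none of the 4 calls at 1 day remained, with adjusted p from 0.0612 to 0.194.

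**Figure D1:**
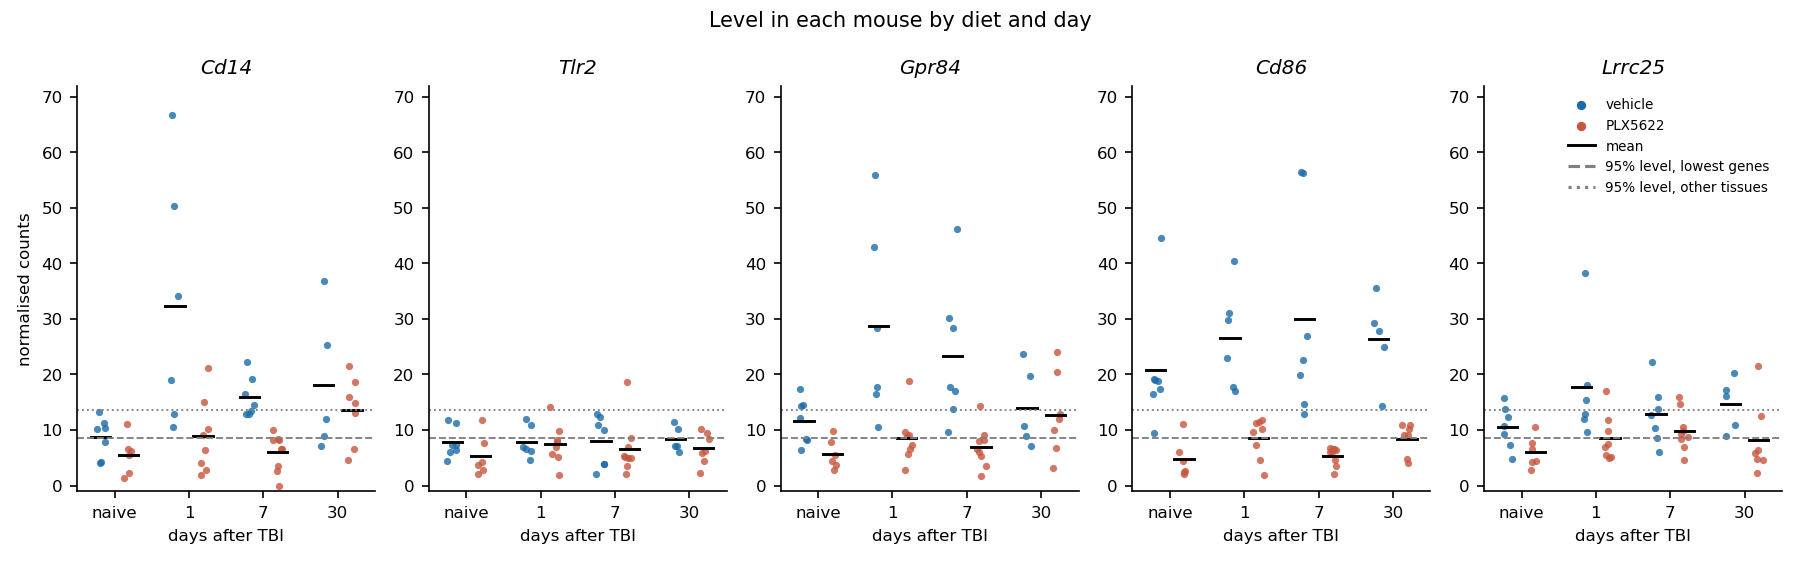
Normalised counts (vertical axis) of the 5 receptors in each mouse, by days after TBI, in vehicle (blue) and PLX5622 (red). Bars are group means, and the dashed and dotted lines are the background levels 8.63 and 13.5 explained below. Cd86 is the gene whose diets separate at all 3 days after TBI, and Tlr2 stays low in every group.

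Cd14, the ligand-handing coreceptor, was lower on PLX5622 at 1 and 7 days. In naive vehicle mice it ran from 4.03 to 13.3 normalised counts (median 10.2; 8.77 ± 3.53, SD, n = 7). At 1 day it ran from 10.5 to 66.8 (median 26.5; 32.3 ± 22.6, SD, n = 6), and at 7 days from 12.9 to 22.3 (median 14.5; 16.0 ± 3.61, SD, n = 7). The 5 vehicle mice of 30 days stood at 7.19, 8.88, 11.9, 25.4 and 36.9 (18.1 ± 12.7, SD). The highest mice of the vehicle diet were thus at 1 day, with 4 of 6 above every naive mouse. On PLX5622 the naive mice ran from 1.27 to 11.1 (median 5.90; 5.50 ± 3.50, SD, n = 6). The values at 1 day ran from 1.97 to 21.1 (median 7.76; 8.84 ± 6.56, SD, n = 8). At 7 days they ran from 0 to 9.97 (median 6.64; 6.00 ± 3.25, SD, n = 9). Those at 30 days ran from 4.68 to 21.4 (median 14.8; 13.6 ± 6.09, SD, n = 7). The diets did not overlap at 7 days, and 6 of 8 PLX5622 mice lay below all vehicle mice at 1 day. The diet difference was -1.46 ± 0.43 (SE) on the log2 scale at 1 day (limma adjusted p = 0.0322) and -1.44 ± 0.39 at 7 days (adjusted p = 0.0145). It was -0.74 in naive mice (adjusted p = 0.6004) and -0.33 at 30 days (adjusted p = 0.850), neither of which passed. Within the 3 RNA extraction batches the difference at 1 day was -3.17, -0.11 and -2.44, so it was near 0 in batch 2. These batches held 3, 3 and 2 PLX5622 mice against 1, 3 and 2 vehicle mice. The call at 1 day was lost when any 1 of 6 mice was left out (693, 696, 697, 725, 726 or 741), with adjusted p up to 0.182, and with cartridge and extraction batch both as covariates (0.0522). The call at 7 days was lost without mouse 686 or 687, up to 0.122, and with only the groups compared (0.114).

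Tlr2, the pattern receptor, had no diet difference that passed the test. Its vehicle means were 7.75 ± 2.74 (SD, n = 7) in naive mice, 7.83 ± 2.92 (n = 6) at 1 day and 8.02 ± 4.53 (n = 7) at 7 days. The 5 vehicle mice of 30 days stood at 5.97, 7.08, 7.11, 10.1 and 11.5. On PLX5622 the means were 5.40 ± 3.71 (SD, n = 6), 7.43 ± 3.62 (n = 8), 6.65 ± 4.86 (n = 9) and 6.68 ± 2.83 (n = 7) in the same order. The diets overlapped at every time, and single mice ranged from 1.83 to 18.6. The diet difference was -0.44, -0.41, -0.28 and -0.32 on the log2 scale, with 95% intervals that all included 0, from -1.15 to 0.26 in naive mice and from -1.06 to 0.42 at 30 days. A lack of a call at these counts does not show that the diets had the same level.

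The start regions of Tlr2 and Gpr84 are printed because these 2 of the 5 are in the RefSeq promoter table used (build GRCm38.p6), and because they differ in a motif of NF-kB, the factor downstream of TLR2. Each run holds 250 bases before and 50 after the gene's start, 5′ to 3′ on the gene's strand, at chr3:83841559-83841858 (minus strand) for Tlr2 and chr15:103310389-103310688 (minus strand) for Gpr84. Capitals mark matches, on either strand, to GGG and CC with any 5 bases between them, the spacing of NF-kB sites.
Tlr2: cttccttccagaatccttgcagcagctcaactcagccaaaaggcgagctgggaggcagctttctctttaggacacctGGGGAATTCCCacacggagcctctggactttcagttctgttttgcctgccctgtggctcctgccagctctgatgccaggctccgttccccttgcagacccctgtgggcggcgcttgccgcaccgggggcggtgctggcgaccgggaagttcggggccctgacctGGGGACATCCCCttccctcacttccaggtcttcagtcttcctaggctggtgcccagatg
Gpr84: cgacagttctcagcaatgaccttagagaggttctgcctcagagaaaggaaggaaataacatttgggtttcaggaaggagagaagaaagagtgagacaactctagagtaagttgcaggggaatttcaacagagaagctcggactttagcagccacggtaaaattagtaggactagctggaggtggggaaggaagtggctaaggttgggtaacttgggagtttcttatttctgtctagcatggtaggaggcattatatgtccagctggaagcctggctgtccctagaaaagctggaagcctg
Tlr2 held overlapping matches at 2 places, and the Gpr84 window held none. This spacing was found in 50.8% of all 32851 promoters of the table, so a match is common. Neither window held GAGGAA, a box of PU.1 and other ETS factors (28.3% of promoters), nor TGANTCA, an AP-1 site (7.81%), searched on both strands. Matches describe letters in these windows and were not tied to any value here.

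Gpr84, the fatty acid receptor, was lower on PLX5622 at 1 and 7 days. In vehicle mice it ran from 6.42 to 17.4 when naive (median 12.1; 11.6 ± 4.03, SD, n = 7). At 1 day it ran from 10.5 to 55.8 (median 23.0; 28.6 ± 17.5, SD, n = 6), and at 7 days from 9.67 to 46.2 (median 17.7; 23.3 ± 12.6, SD, n = 7). The 5 vehicle mice of 30 days stood at 7.19, 8.88, 10.7, 19.7 and 23.7 (14.0 ± 7.23, SD). At 1 and 7 days 4 vehicle mice each lay above every naive mouse. On PLX5622 the mean was 5.69 ± 2.66 (SD, n = 6) in naive mice, 8.58 ± 4.68 (n = 8) at 1 day, 6.96 ± 3.62 (n = 9) at 7 days and 12.7 ± 7.34 (n = 7) at 30 days. All but 1 PLX5622 mouse lay below all vehicle mice at 1 day (7 of 8) and at 7 days (8 of 9). The diet difference was -1.46 ± 0.39 (SE) on the log2 scale at 1 day (limma adjusted p = 0.0139) and -1.56 ± 0.36 at 7 days (adjusted p = 0.00214). In naive mice it was -0.97 (adjusted p = 0.341) and at 30 days -0.20 (adjusted p = 0.882). The call at 1 day was lost without vehicle mouse 720 or 726, with adjusted p up to 0.0807. The change in the diet difference from 7 to 30 days, a comparison added after the levels were seen, was 1.35 ± 0.54 for Gpr84 and 1.11 ± 0.59 for Cd14, both with limma adjusted p = 0.953, and 0% of all genes were called in it. From 1 to 30 days the change was 1.26 ± 0.57 for Gpr84 and 1.13 ± 0.63 for Cd14, with 0 of the 5 called and 0.501% of all genes called (limma adjusted p = 0.674 and 0.723).

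Cd86, the costimulatory ligand, was lower on PLX5622 in naive cortex and at all 3 days. In vehicle mice it ran from 9.42 to 44.6 when naive (median 18.8; 20.7 ± 11.1, SD, n = 7). At 1 day it ran from 17.01 to 40.5 (median 26.4; 26.5 ± 9.01, SD, n = 6), and at 7 days from 12.9 to 56.4 (median 22.5; 29.9 ± 18.6, SD, n = 7). The 5 vehicle mice of 30 days stood at 14.4, 24.9, 27.8, 29.3 and 35.5 (26.4 ± 7.75, SD). The 4 vehicle groups overlapped widely. On PLX5622 it ran from 2.09 to 11.1 in naive mice (median 3.55; 4.79 ± 3.42, SD, n = 6). At 1 day it ran from 1.97 to 11.9 (8.55 ± 3.60, SD, n = 8), at 7 days from 2.04 to 6.77 (5.38 ± 1.65, SD, n = 9) and at 30 days from 4.13 to 10.9 (8.43 ± 2.83, SD, n = 7). No PLX5622 mouse reached a vehicle mouse of its own day after TBI, and in naive mice 5 of 6 lay below all vehicle mice. The diet difference was -2.01 ± 0.34 (SE) on the log2 scale in naive mice (limma adjusted p = 1.191e-05) and -1.59 ± 0.34 at 1 day (adjusted p = 0.000687). It was -2.05 ± 0.31 at 7 days (adjusted p = 1.089e-06) and -1.47 ± 0.36 at 30 days (adjusted p = 0.00747). All 12 differences within extraction batches were below 0, from -2.91 to -0.89. A single vehicle mouse stood behind batch 2 in naive mice, batch 1 at all 3 days and batch 3 at 30 days. Both ends of the range were among these differences. Without vehicle mouse 707 the adjusted p at 30 days was 0.0686. The PLX5622 mean was 23.1% of the vehicle mean in naive mice, 32.3% at 1 day, 17.98% at 7 days and 32.0% at 30 days, in each case a larger share than for Csf1r, Cx3cr1 and P2ry12. Any level of background held in these means raises such shares.

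Lrrc25, the leucine-rich repeat protein, was called lower on PLX5622 at 1 day. In vehicle mice it ran from 4.75 to 15.7 when naive (median 10.7; 10.6 ± 3.78, SD, n = 7). At 1 day it ran from 9.63 to 38.3 (median 14.1; 17.7 ± 10.5, SD, n = 6), and at 7 days from 5.98 to 22.3 (median 12.6; 12.8 ± 5.34, SD, n = 7). The 5 vehicle mice of 30 days stood at 8.88, 10.9, 16.2, 17.3 and 20.3 (14.7 ± 4.69, SD). On PLX5622 the means were 6.02 ± 2.79 (SD, n = 6) in naive mice, 8.56 ± 4.18 (n = 8) at 1 day, 9.89 ± 3.55 (n = 9) at 7 days and 8.26 ± 6.61 (n = 7) at 30 days. The diets overlapped at every time. The diet difference at 1 day was -1.05 ± 0.32 (SE) on the log2 scale (limma adjusted p = 0.0481). This call was lost in 5 of 12 other settings and when any 1 of 9 of the 14 mice was left out, with adjusted p up to 0.153. The differences were -0.65 in naive mice (adjusted p = 0.523), -0.37 at 7 days (0.917) and -0.998 at 30 days (0.149).

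**Figure D2:**
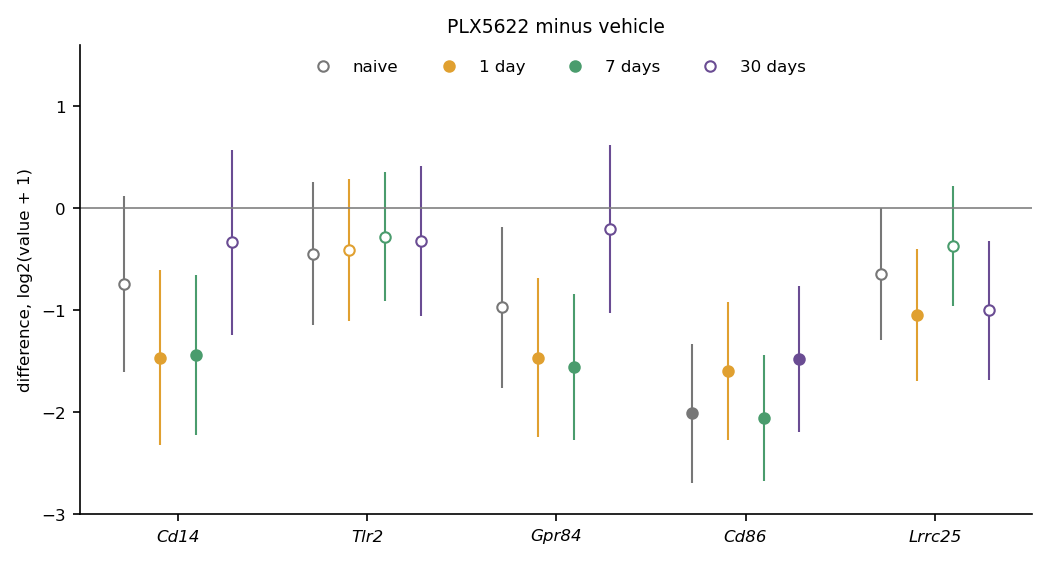
Difference between PLX5622 and vehicle on the log2(value + 1) scale, with 95% intervals from limma, for each receptor in naive mice and 1, 7 and 30 days after TBI. Filled points have an adjusted p under 0.05; Cd86 is filled at all 4 times, from -2.05 to -1.47, and Tlr2 at none.

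On PLX5622 most of the receptors lay near background. Background was taken from the 20 genes of lowest mean over all mice, 95% of whose values stayed below 8.63 normalised counts, with a median of 3.44. By that level 16 of the 20 receptor and group pairs on PLX5622 had a mean near background, against 4 of 20 on vehicle. Cd86 and Tlr2 were near background in all 4 PLX5622 groups, and Tlr2 in all 4 vehicle groups too. Gpr84 was near background in 3 of 4 PLX5622 groups, with 30 days above (12.7), and Lrrc25 in 3 of 4, with 7 days above (9.89). Cd14 was near background in naive mice and at 7 days, lay just above the level at 1 day (8.84), and was above it at 30 days (13.6). On vehicle, the naive mean of Cd14 (8.77) was also just above the level. On PLX5622, Cd86 at 1 day (8.55) and 30 days (8.43) lay just under it, as did Gpr84 (8.58) and Lrrc25 (8.56) at 1 day. Single PLX5622 mice under the level in Cd86 were 3 of 8 at 1 day and 2 of 7 at 30 days. In naive mice they were 5 of 6, and at 7 days 9 of 9.

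The 20 lowest genes were picked for low values, so a second set took 20 genes known mainly from other tissues, named after the panel was seen. Of these, 5 were also among the 20 lowest, so the sets are not independent. The second set gave a level of 13.5. Against it 19 of 20 pairs on PLX5622 were near background, Cd14 at 30 days (13.6) being the exception, and 8 of 20 on vehicle. The second level rests in part on 1 gene, Smyd1, whose mean was 14.8. The next highest of these 20 genes, Pla2g2f, had a mean of 9.31. Probes differ in their efficiency and background, so neither level is exact for a given receptor. Within each mouse, which needs no scaling, Cd86 exceeded the highest of the 20 lowest genes in 24 of 25 vehicle mice and 5 of 30 PLX5622 mice. The same counts were 19 and 9 for Cd14, 19 and 12 for Gpr84, 18 and 13 for Lrrc25, and 8 and 7 for Tlr2. The median of the 20 lowest genes ran from 2.78 to 3.94 over the 8 groups, without a step between the diets like that of Cd86.

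**Figure D3:**
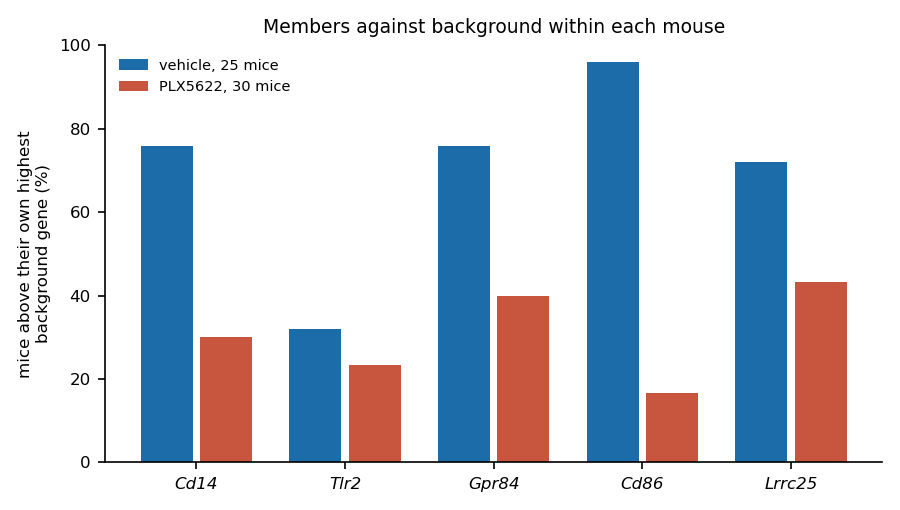
Percent of mice (vertical axis) in which each receptor exceeded the highest of the 20 background genes of the same mouse, in 25 vehicle (blue) and 30 PLX5622 (red) mice. Cd86 does so in 24 of 25 vehicle and 5 of 30 PLX5622 mice, and Tlr2 in 8 and 7.

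In vehicle mice no receptor passed the test at 1 day after TBI, where the means of Cd14 and Gpr84 lay farthest above naive. At that day 0 of the 5 were called by limma, against 2.25% of all genes called either way, with 3 at an unadjusted p under 0.05 and 2 called by DESeq2 and by edgeR each. Cd14 was 1.48 ± 0.45 (SE) higher on the log2 scale (limma adjusted p = 0.0602), and its mean was 3.68 times the naive mean. DESeq2 gave Cd14 an adjusted p of 0.00159 and edgeR 0.00204. Its difference within extraction batches was 2.35, 0.046 and 2.65, again near 0 in batch 2. Gpr84 differed by 1.08 ± 0.41 (limma adjusted p = 0.173; DESeq2 0.0232, edgeR 0.0252) and by 1.33, 1.16 and 1.27 within batches. Lrrc25 differed by 0.87 ± 0.34 (adjusted p = 0.188), Cd86 by 0.33 and Tlr2 by 0.30. Within batches Lrrc25 differed by 1.22, -0.43 and 1.15, Cd86 by -0.16, -0.79 and 0.97 and Tlr2 by -0.81, 0.13 and 0.27. None of these kept 1 direction. The 3 batches held 1, 3 and 2 mice of 1 day and 2, 1 and 4 naive mice. Batches 1 and 2 each rested on a single mouse on 1 side. The naive mouse of batch 2 was 732, the highest naive vehicle mouse in Cd14, Cd86 and Lrrc25.

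At 7 days in vehicle 0 receptors were called, against 0% of all genes, with 1 at an unadjusted p under 0.05 and 0 by DESeq2 or edgeR. The differences from naive were 0.83 for Gpr84, 0.82 for Cd14, 0.38 for Lrrc25, 0.33 for Cd86 and 0.040 for Tlr2. At 30 days 0 were called, against 0% of all genes, with 1 at an unadjusted p under 0.05 and 0 by DESeq2 or edgeR. Cd14 differed by 0.87, Lrrc25 by 0.70, Tlr2 by 0.25, Cd86 by 0.22 and Gpr84 by 0.21. Between days, 0 were called for 7 against 1 day (0% of all genes; 0 at an unadjusted p under 0.05) and 0 for 30 against 7 days (0%; also 0), by limma, DESeq2 or edgeR. The difference farthest from 0 was -0.66 for Cd14 from 1 to 7 days and -0.62 for Gpr84 from 7 to 30 days.

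On PLX5622 no receptor was called after TBI either. At 1 day 0 of 5 were called by limma, DESeq2 or edgeR (1 at an unadjusted p under 0.05), against 7.01% of all genes. In naive mice and at 1 day all receptor means on PLX5622 were under the background level of 8.63, except Cd14 at 1 day (8.84). At 7 days 0 were called (1 at an unadjusted p under 0.05), against 1.5% of all genes, and at 30 days 0 (3 at an unadjusted p under 0.05), against 2.25%. The largest differences from naive were at 30 days, 1.28 ± 0.43 (SE) for Cd14 (limma adjusted p = 0.129), 0.98 ± 0.39 for Gpr84 (0.246) and 0.75 ± 0.34 for Cd86 (0.355). For Cd14 and Gpr84, 5 of 7 mice of 30 days each lay above all naive PLX5622 mice. The summed microglial markers of the PLX5622 mice moved the same way, from a median of 256 in naive mice to 1026 at 30 days, and their part in these differences was not tested. From 1 to 7 days (2.38% of all genes called) and from 7 to 30 days (0% called), 0 receptors were called by limma, DESeq2 or edgeR, with 0 and 2 at an unadjusted p under 0.05. Cd14 differed by -0.63 and then by 1.16 ± 0.39 (limma adjusted p = 0.708).

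**Figure D4:**
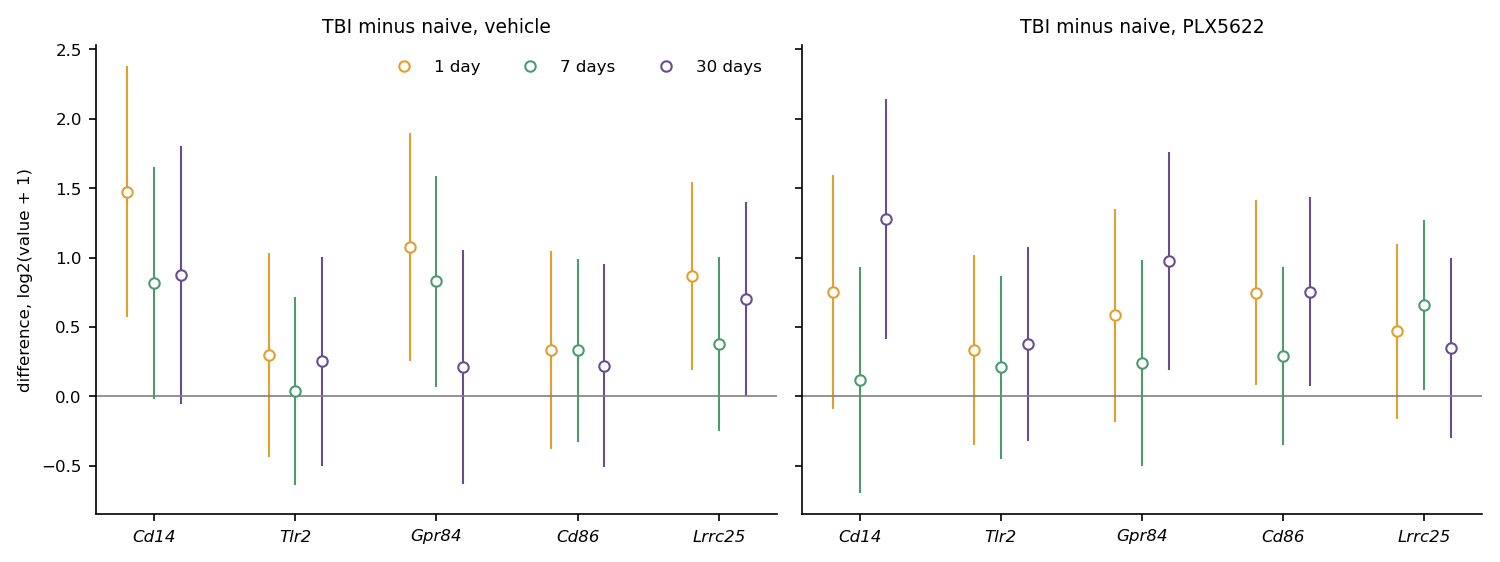
Difference between TBI and naive mice on the log2(value + 1) scale, with 95% intervals from limma, on vehicle (left) and PLX5622 (right) at 1, 7 and 30 days. All points are open, since no adjusted p was under 0.05; Cd14 is highest at 1 day on vehicle (1.48) and at 30 days on PLX5622 (1.28).

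Whether the response to TBI differed between diets was tested as an interaction. No receptor was called at 1 day (0.125% of all genes called), 7 days (0%) or 30 days (0.375%) by limma, DESeq2 or edgeR, and none had an unadjusted limma p under 0.05. The values farthest from 0 were -0.72 ± 0.61 (SE) for Cd14 at 1 day, -0.70 ± 0.58 for Cd14 at 7 days and 0.77 ± 0.57 for Gpr84 at 30 days. The 95% interval of Cd14 at 1 day ran from -1.96 to 0.51.

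When the 8 group means of log2(value + 1) were put in order, Cd14, Gpr84 and Lrrc25 were highest in vehicle mice at 1 day, Cd86 in vehicle mice at 7 days and Tlr2 in vehicle mice at 30 days. The lowest group was naive PLX5622 for all 5. Neighbours in each order differed by less than the larger of their SDs, apart from Cd86, where the lowest vehicle group (naive, 4.31) and the highest PLX5622 group (30 days, 3.17) were 1.15 apart. For Cd14 the PLX5622 mice of 30 days (3.73) stood above the naive vehicle mice (3.19), and for Gpr84 they stood just below them (3.57 and 3.59), neither pair apart by this rule.

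Over the 8 group means, Cd14 and Gpr84 were the most alike of the receptors (Pearson r = 0.95) and Tlr2 and Gpr84 the least (0.71). These points share the diet contrast, so high values are common. Of the other genes, those close to Cd86 included Tgfbr1, a receptor for TGF-beta (0.99), and Hpgds, a prostaglandin D synthase (0.98). Gpr84 was most like Tnfrsf1b, a receptor for TNF (0.98), Pcna (0.96), C3ar1, the C3a receptor (0.95), and Nlrp3, an inflammasome sensor (0.95). Cd14 was most like Pcna, Cd68, a phagocyte lysosome protein (both 0.94), Tnfrsf1b and Gnai3 (both 0.93). Lrrc25 was most like Gucy1b3 (0.95), Spi1, which encodes PU.1, C3ar1 and Ncf1 (0.92 each). Tlr2 was most like Apaf1 (0.95), Tgfb1, Ctnnb1 (both 0.93) and Hmgb1 (0.92).

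Whether vehicle mice high in 1 receptor for their group were high in another was tested over 25 mice. Deviations from the group mean of log2(value + 1) gave a positive Pearson r in all 10 pairs, from 0.0053 for Cd14 with Tlr2 to 0.57 for Cd14 with Lrrc25. That last pair was the only 1 of the 10 to pass a two-sided permutation test within groups (p = 0.00471, Benjamini-Hochberg adjusted p = 0.0471 over 10 pairs), with Spearman rho = 0.63 (permutation p = 0.0010, adjusted p = 0.010). Without the 2 mice farthest from the median of Cd14, r was 0.66. Within the extraction batches of 5, 10 and 10 mice r was 0.15, 0.81 and 0.45, the first of too few mice to read. With deviations adjusted for the cartridge, r was 0.52 and the permutation adjusted p = 0.0651. Cd14 with Gpr84 gave r = 0.51 (permutation adjusted p = 0.115).

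**Figure D5:**
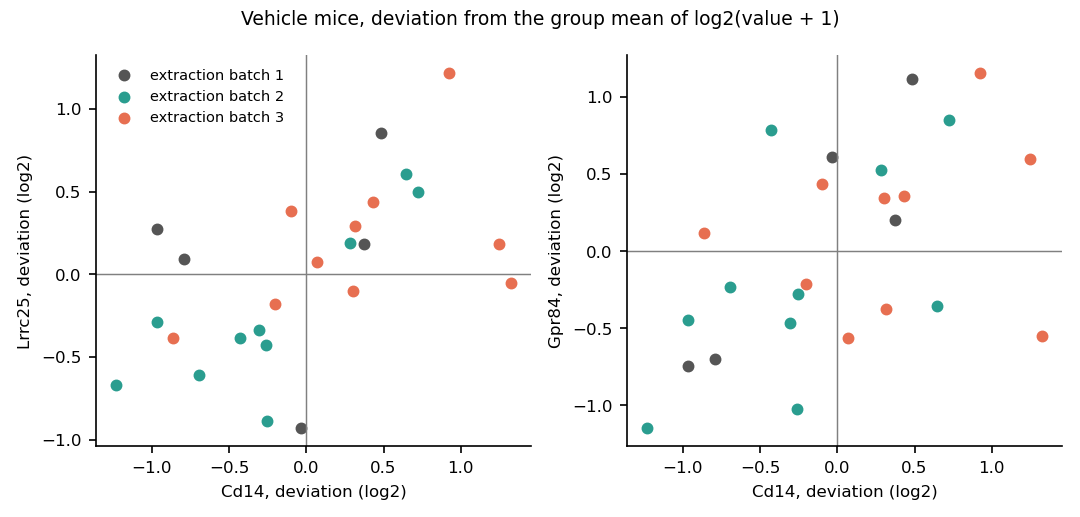
Deviations of Cd14 from its group mean (horizontal axis, log2) against those of Lrrc25 (left) and Gpr84 (right) in 25 vehicle mice, coloured by RNA extraction batch. Pearson r is 0.57 on the left and 0.51 on the right.

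Of a list of 56 other genes of the Toll-like receptor pathway, 19 were on the panel. In each of the 4 diet comparisons 0 were called by limma, with medians from -0.12 to 0.046 on the log2 scale. Between 1 and 4 had an unadjusted p under 0.05, and DESeq2 called at most 1 and edgeR at most 2. Tlr4, the lipopolysaccharide receptor that CD14 serves, differed between diets by -0.72 in naive mice (limma adjusted p = 0.486), 0.19 at 1 day (0.859), -0.73 at 7 days (0.315) and -0.77 at 30 days (0.483). At all but 1 day the unadjusted p of Tlr4 was under 0.05. On PLX5622 at 1 day after TBI 3 of the 19 rose by limma, where 54 of all 799 genes rose and 7.01% were called either way, and DESeq2 called 2 and edgeR 1. Tlr4 went from a mean of 10.4 ± 3.70 (SD, n = 6) to 23.6 ± 9.50 (n = 8), a difference of 1.27 ± 0.33 (SE; limma adjusted p = 0.00896). Ccl5, a chemokine for T cells, rose by 1.57 ± 0.46 (adjusted p = 0.0265), and Rela, an NF-kB subunit, by 0.52 ± 0.17 (adjusted p = 0.0496). In vehicle mice 1 of the 19 rose at 1 day, Tnf, the inflammatory cytokine, by 1.35 ± 0.38 (limma adjusted p = 0.0485), where 15 of all 799 genes rose and 2.25% were called either way. There DESeq2 called 6 of the 19 and edgeR 5. The mean of Tnf went from 5.03 to 14.0 in that comparison. That of Ccl5 went from 6.79 to 21.5 on PLX5622. Both started under the background level of 8.63. In vehicle mice at 1 day Tlr4 differed by 0.37, Ccl5 by 0.96 and Rela by 0.12, and none was called. On PLX5622 at 1 day Tnf differed by 0.23 and was not called. For the interaction of diet and TBI at 1 day, 0.125% of all genes were called and none of these (limma adjusted p from 0.853 to 0.935). Of them, only Tnf had an unadjusted limma p under 0.05 (0.0372).

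Of 20 genes of antigen presentation and costimulation, 4 were on the panel (Cd40, H2-Eb1, Itgal and Icam1), and in each diet comparison 0 were called by limma, DESeq2 or edgeR, with 0 at an unadjusted p under 0.05. H2-Eb1, a class II chain, differed between diets by -0.52 in naive mice, 0.47 at 1 day, 0.14 at 7 days and -0.14 at 30 days, none of which passed (limma adjusted p from 0.5999 to 0.9752). On PLX5622 at 1 day after TBI, with the same 7.01% of all genes called, Icam1, an adhesion ligand for leukocytes, rose by 0.99 ± 0.27 (SE; adjusted p = 0.0138) and H2-Eb1 by 1.05 ± 0.34 (adjusted p = 0.0456). The receptors themselves differed by 0.33 to 0.75 in that comparison and were not called. In vehicle mice at 1 day Icam1 differed by 0.55 and H2-Eb1 by 0.06, and neither was called. Their interactions of diet and TBI at 1 day were not called either (limma adjusted p = 0.935 and 0.853), with an unadjusted limma p of 0.0489 for H2-Eb1.

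Markers of other myeloid cells were sparse on the panel. Of 23 neutrophil and monocyte markers 4 were measured, and their summed level ran from 15.8 to 95.2 over vehicle mice and from 7.50 to 154 over PLX5622 mice. Ccr2, a receptor of blood monocytes, rose on PLX5622 at 1 day after TBI by 1.89 ± 0.49 (SE; limma adjusted p = 0.00896) and differed between diets at that day by 0.077 (adjusted p = 0.966). Its mean went from 5.67 in naive mice to 21.7 on PLX5622, and from 8.68 to 24.6 on vehicle, where limma called 0 of the 4 markers. Ly6g, a neutrophil marker, had group means from 0.789 to 3.91 and is itself among the 20 lowest genes. Border macrophage markers (Mrc1 and Cd163, 2 of 9) summed to between 7.92 and 25.6 in vehicle and 7.03 and 27.7 in PLX5622 mice, and lymphocyte markers (Cd4 and Cd8a, 2 of 17) to between 12.8 and 33.8 and between 8.04 and 47.8. The part of these cells in the receptor levels was not tested.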

How the data were processed

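Cortex of 55 mice was measured on the nCounter, 1 library each. RNA was pre-amplified, with the cycle number based on housekeeping genes, per the labels' protocols. The deposited values are a signal, barcode counts divided by 1 factor per mouse, and the submitters' processing notes name DESeq2, with no version. Whether background was subtracted is not stated in the labels used here. Values times the factor were whole counts within 0.02 for 100% of values. Members and gene lists were chosen with earlier results of these data known.

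limma 3.58.1 (R 4.3.3) was run on log2(value + 1) of all 799 genes with a trend, 8 group means and the nanostring cartridge as covariate, with Benjamini-Hochberg adjustment. Fold changes on that scale understate the change of low genes. DESeq2 1.42.0 and edgeR 4.0.16 on recovered counts, other covariates, a pseudocount of 10, centring, background subtraction, other filters and leaving out each mouse were alternatives. Methods were tested on simulated data. Correlations used 100000 permutations (scipy 1.17.1). The named genes were the 5 members, the 4 genes most like each over group means (2 of those for Cd86 are not reported here), up to 4 called genes each of 2 pathway lists, and 4 microglial references. Ccr2, Ly6g and other markers are named from marker lists. Mice are separate animals. Mouse numbers link no mice across groups. Of the 799 symbols, 792 matched RefSeq symbols and 7 synonyms.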

Additional observations from a re-analysis of the deposited data

Results flagged for a closer look

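Of 40 receptor and group sets, 4 had 1 mouse far from the others of its group by Dixon's criterion on normalised counts. The criterion passes about 1 in 20 groups by chance where values are normal, and these are skewed. On the log2(value + 1) scale 0 of these 4 passed, and 1 other group did, Cd14 on PLX5622 at 7 days, through its lowest mouse at 0 counts. On PLX5622 at 7 days, Tlr2 stood at 18.6 normalised counts in mouse 687, with the next mouse at 8.54. On PLX5622 at 1 day, Gpr84 stood at 18.8 in mouse 711, with the next at 9.62. In naive vehicle mice, Cd86 stood at 44.6 in mouse 732, with the next at 19.3. In vehicle mice at 1 day, Lrrc25 stood at 38.3 in mouse 726, with the next at 18.1. Mouse 726 also bears on the diet calls at 1 day, of which 1 was left without it.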

How the results depend on the processing

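The calls for Cd86 in naive mice and at 7 days, and for Gpr84 at 7 days, held under every alternative run. The median barcode counts behind these calls on PLX5622 were 4 for Cd86 in naive mice and at 7 days and 5 for Gpr84 at 7 days. The number of receptors called lower on PLX5622 at 1 day, 4, became 2 with cartridge and extraction batch as covariates and 0 with only the groups compared, and lay between 1 and 4 with 1 mouse left out (2 without 696, 697 or 720, 1 without 726). At 30 days, 1 became 2 with only the groups compared, and lay between 0 (without 707) and 2 (without 733). For vehicle at 1 day after TBI, 0 became 1 with extraction batch as covariate or a pseudocount of 10, and 2 with only the groups compared, DESeq2 or edgeR, and lay between 0 and 1 with 1 mouse left out (1 without 704 or 712). For PLX5622 at 1 day it lay between 0 and 1 (1 without 696 or 698). The 1 correlated pair became 0 after cartridge adjustment. A minimum mean of 20 removed all 5 receptors, so it gave no value; a minimum of 7, chosen after seeing the data, moved no count by over 1.5 times. Between 16 and 19 of 20 PLX5622 pairs were near background under the 4 definitions.

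Signs changed only for differences that were not called. For PLX5622 against vehicle at 30 days, Gpr84 was 0.0343 by edgeR and ran from -0.4114 to 0.0621 with 1 mouse left out. Against naive in vehicle, Tlr2 at 7 days was -0.0973 with no covariate, -0.006 with extraction batch and -0.1207 with only the groups compared, and ran from -0.1163 to 0.2456. With only the groups compared, Tlr2 at 30 days was -0.0257 and Cd86 -0.1242, and Gpr84 at 30 days ran from -0.0288 to 0.369 with 1 mouse left out. On PLX5622 at 7 days, Cd86 was -0.0148 after background subtraction and Cd14 ran from -0.1987 to 0.396. From 1 to 7 days in vehicle, Cd86 was 0.0237 with no covariate, 0.0542 with extraction batch, 0.0173 with a pseudocount of 10, 0.0586 after centring, 0.0636 by DESeq2 and 0.0615 by edgeR, and ran from -0.1929 to 0.2441. From 7 to 30 days in vehicle, Cd14 was -0.0607 with no covariate, -0.0646 after centring, -0.0237 with only the groups compared and -0.0101 after background subtraction, and ran from -0.2042 to 0.3; Tlr2 was -0.0792 by DESeq2 and -0.0573 by edgeR, and ran from -0.0303 to 0.3838; Cd86 ran from -0.3469 to 0.1042. The interaction of Tlr2 at 1 day was -0.0017 with a pseudocount of 10, -0.0436 after centring, -0.0823 with only the groups compared, -0.3407 after background subtraction, -0.0506 by DESeq2 and -0.0323 by edgeR, and ran from -0.1302 to 0.2565. At 7 days it was -0.0364 after background subtraction, -0.0807 by DESeq2 and -0.0567 by edgeR, and ran from -0.0318 to 0.3344, while that of Cd86 ran from -0.2359 to 0.2079. At 30 days that of Tlr2 ran from -0.0343 to 0.3352. The cause was not tested for any of these. No paired analysis was possible because mouse numbers are unique to each animal and link no mice across groups.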
